A study of Mus musculus with 12 samples.

Results

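The regions described here are promoter peaks that were open in each of 3 sorted cell populations of the mouse forebrain, and what happened to them in mice that lack Sgsh. A peak belonged to the set when its annotation was promoter-TSS in every table (microglia, NeuN+ and Olig2+) and when the peaks of the 3 tables overlapped one to one, with at least 50% of each peak covered by the others. These 8786 shared promoters came from 281974 peaks in all (91770, 107627 and 82577 in the 3 tables) and from 16740 peaks that overlapped one to one. They made up 54.1% of the promoter-TSS peaks of microglia, 53.6% of those of NeuN+ nuclei and 59.1% of those of Olig2+ nuclei.

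The 12 libraries were ATAC-seq libraries (a transposase cuts accessible DNA and tags the ends for sequencing) from forebrain of C57BL/6 mice at 4 months of age. Each of the 6 groups (WT and SgshKO in each sort) had 2 libraries. Sgsh encodes a lysosomal sulfatase that takes part in the stepwise breakdown of heparan sulfate. Microglia were sorted as living cells positive for CD11b and CX3CR1 with low CD45, whereas NeuN+ nuclei (negative for PU.1 and OLIG2) and Olig2+ nuclei (negative for PU.1 and NEUN) were sorted after light formaldehyde fixation, so cell type and preparation cannot be told apart in a comparison between sorts. The labels give neither the kind of Sgsh allele nor the animal behind each library. The p-values below therefore measure the spread between libraries, which may be technical.

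As background, a promoter that is open in unrelated cell types usually belongs to a gene that every cell needs. Most such promoters lie in CpG islands, keep a nucleosome-free stretch just upstream of the start site and bind widely expressed factors of the SP, ETS, NRF1, NF-Y and YY1 groups. Promoters used in 1 cell type more often have a TATA box and less CpG. In lysosomal storage, factors of the MITF and TFE family can enter the nucleus and bind E-boxes of the CLEAR type near lysosomal genes.

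Windows of 300 bases from RefSeq (assembly GRCm38.p6, 250 bases before to 50 after the start site) are printed for 8 of these promoters, 5′ to 3′ on the gene's strand. They are shown because they carry the largest or clearest differences described below and the sequence words that are common in the set. Capitals mark every match, on either strand, to GGGCGG (the GC box bound by SP and KLF factors), CCAAT (NF-Y), TGACGTCA (the cAMP response element), CACGTG (E-box) with its longer CLEAR-type form TCACGTGA, CCGGAAG (ETS), GCATGCGC (part of the NRF1 motif), AAGATGGCG (YY1), ACTACAA (part of the ZNF143 motif), TATAAA or GAGGAAGT (PU.1). The Ulk1 window (chr5:110810032-110810331, - strand) holds 5 GC boxes, that of Plrg1 (chr3:83055288-83055587, + strand) 8 GC boxes and 2 CCAAT boxes, that of Fau (chr19:6057697-6057996, + strand) 2 GC boxes and 1 cAMP response element, and that of Esrra (chr19:6921759-6922058, - strand) 2 GC boxes and 1 NRF1 match. The other windows are those of Klf7 (chr1:64121340-64121639, - strand), Fkbp3 (chr12:65073889-65074188, - strand, with the YY1 match), Deaf1 (chr7:141327676-141327975, - strand, with 2 GC boxes) and Nudt9 (chr5:104046614-104046913, + strand, with 1 CLEAR-type match and 2 E-box matches, of which 1 lies within it).
Ulk1: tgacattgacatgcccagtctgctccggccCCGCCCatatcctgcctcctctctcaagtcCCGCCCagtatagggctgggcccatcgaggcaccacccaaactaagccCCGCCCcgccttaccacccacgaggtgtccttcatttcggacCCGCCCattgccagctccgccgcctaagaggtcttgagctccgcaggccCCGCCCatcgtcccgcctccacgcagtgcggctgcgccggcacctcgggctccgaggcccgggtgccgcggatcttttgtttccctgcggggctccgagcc
Plrg1: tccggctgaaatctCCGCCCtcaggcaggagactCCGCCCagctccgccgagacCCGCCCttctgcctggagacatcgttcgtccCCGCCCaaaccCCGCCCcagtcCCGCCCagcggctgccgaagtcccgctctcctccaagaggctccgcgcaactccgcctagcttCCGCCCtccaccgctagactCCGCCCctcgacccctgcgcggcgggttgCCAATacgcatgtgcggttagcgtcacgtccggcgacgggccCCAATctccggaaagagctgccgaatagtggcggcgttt
Fau: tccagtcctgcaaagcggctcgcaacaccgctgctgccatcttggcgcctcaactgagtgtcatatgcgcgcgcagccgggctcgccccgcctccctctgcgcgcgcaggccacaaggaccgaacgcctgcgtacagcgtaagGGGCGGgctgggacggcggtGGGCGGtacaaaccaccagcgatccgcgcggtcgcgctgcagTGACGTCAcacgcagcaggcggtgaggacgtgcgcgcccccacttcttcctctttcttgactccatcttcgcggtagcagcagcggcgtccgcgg
Esrra: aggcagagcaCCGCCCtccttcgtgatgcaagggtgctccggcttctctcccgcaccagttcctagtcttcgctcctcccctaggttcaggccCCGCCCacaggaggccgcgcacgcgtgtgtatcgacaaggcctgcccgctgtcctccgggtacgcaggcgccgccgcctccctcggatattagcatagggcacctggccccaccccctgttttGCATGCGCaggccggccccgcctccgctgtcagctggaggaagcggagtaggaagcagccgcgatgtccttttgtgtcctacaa
Klf7: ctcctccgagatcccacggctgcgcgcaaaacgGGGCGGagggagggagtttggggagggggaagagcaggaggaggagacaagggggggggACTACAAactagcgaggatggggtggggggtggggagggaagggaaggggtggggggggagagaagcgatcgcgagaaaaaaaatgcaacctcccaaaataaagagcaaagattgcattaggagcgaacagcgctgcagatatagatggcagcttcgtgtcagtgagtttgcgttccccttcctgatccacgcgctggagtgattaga
Fkbp3: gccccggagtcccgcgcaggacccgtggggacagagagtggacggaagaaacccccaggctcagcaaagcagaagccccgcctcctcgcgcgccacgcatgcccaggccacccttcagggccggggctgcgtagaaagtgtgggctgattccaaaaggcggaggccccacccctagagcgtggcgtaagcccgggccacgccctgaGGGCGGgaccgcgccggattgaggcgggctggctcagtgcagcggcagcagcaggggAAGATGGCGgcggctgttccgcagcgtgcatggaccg
Deaf1: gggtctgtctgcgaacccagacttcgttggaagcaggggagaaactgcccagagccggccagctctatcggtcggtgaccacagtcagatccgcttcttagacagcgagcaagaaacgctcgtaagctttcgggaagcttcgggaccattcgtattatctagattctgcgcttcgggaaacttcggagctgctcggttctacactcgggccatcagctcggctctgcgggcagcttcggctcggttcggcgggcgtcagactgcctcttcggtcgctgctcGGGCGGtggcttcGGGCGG
Nudt9: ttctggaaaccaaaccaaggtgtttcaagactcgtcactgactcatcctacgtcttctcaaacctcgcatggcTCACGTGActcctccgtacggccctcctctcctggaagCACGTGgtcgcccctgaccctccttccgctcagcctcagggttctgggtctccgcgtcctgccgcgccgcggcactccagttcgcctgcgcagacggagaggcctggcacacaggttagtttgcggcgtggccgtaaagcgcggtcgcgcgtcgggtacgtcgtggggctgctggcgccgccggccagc

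The set covered 8023 nearest genes, and the 3 tables named the same gene for 8518 of the 8786 promoters. Nearly all belonged to protein-coding genes (8415), with 344 of ncRNA genes, 22 of pseudogenes, 3 of snRNA genes and 2 of snoRNA genes. There were 256 on the X chromosome and 0 on the Y. The peaks were narrow, with median widths of 238 bp (microglia), 235 bp (NeuN+) and 229 bp (Olig2+), and their centres lay a median of 48, 48 and 50 bp upstream of the start site. In 1134 cases (12.9%) the annotation placed the starts of 2 genes in opposite directions at the same peak, so the name of the nearest gene does not settle which gene such a peak serves. Of the promoters named below, those of Klf7, Sun2, Adrm1, Ccnt2, Zfp788, Fnip2, 2610001J05Rik and Dnm3, beside those said to share a peak, were of this kind. Genes that every cell needs were well covered, with a shared promoter at 63 of 82 cytosolic ribosomal protein genes, 56 of 78 genes of the respiratory chain and ATP synthase, and 33 of 44 proteasome genes. Markers of cell types were nearly absent from it, with 3 of 22 for neurons, 5 of 22 for oligodendrocytes, 1 of 15 for astrocytes (Aldoc), 1 of 14 for endothelium (Slc2a1) and 0 of 15 for blood myeloid cells.

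Library totals ran from 10771659 to 19555924 tags, and the median shared promoter held 69 to 152 reads per library. There was 1 promoter with 0 reads in the second SgshKO microglia library, and 1 in the first SgshKO Olig2+ library. The sorts carried their labels at the marker promoters of the whole tables. In microglia 21 of 22 microglia markers had a promoter peak, with summed levels of 4926 to 5635 normalized tags in WT and 5209 to 6622 in SgshKO, against 2 or 3 of 22 in the nuclei, where the sums stayed between 67.3 and 152. Neuron markers had promoter peaks for 18 of 22 in NeuN+ nuclei and oligodendrocyte markers for 21 of 22 in Olig2+ nuclei, where they summed to 4850 and 4805 in WT against 4240 and 4296 in SgshKO. Neuron markers also had promoter peaks for 8 of 22 in microglia and 10 of 22 in Olig2+ nuclei. Oligodendrocyte markers had them for 7 of 22 in microglia and 6 of 22 in NeuN+ nuclei. The Aif1 promoter, a microglia marker, had no peak in any table.

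In WT cells the shared promoters were more open than other promoter peaks. Their median was 329, 302 and 338 normalized tags per kb in microglia, NeuN+ and Olig2+ nuclei, against 148, 71.3 and 66.3 for the remaining promoter-TSS peaks. A promoter entered the set only with a matching peak in all 3 tables, so part of this difference may follow from the rule itself. (Levels compared between sorts come from tables that the authors scaled separately, so they are given without a test.) Open in all 3 sorts did not mean equally open. The highest of the 3 WT levels exceeded the lowest by a median factor of 2.29, by less than 2 in 39.3% of the promoters and by more than 4 in 19.95%. Microglia had the lowest level of the 3 at 37.3% of the promoters and the highest at 40.5%. Across the 8786 promoters, levels per kb in WT libraries had rank correlations (Spearman) of 0.49 to 0.50 between microglia and NeuN+ nuclei, 0.50 to 0.52 between microglia and Olig2+ nuclei and 0.78 to 0.79 between the nuclei. Libraries of 1 group gave 0.96 to 0.99. These values describe the libraries and share the mappability and base composition of the regions.

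The most open shared promoters in every sort included those of Kdm4b, a histone demethylase gene, with 2356, 2205 and 2756 tags per kb in WT microglia, NeuN+ and Olig2+ nuclei, and Rab8a, a vesicle-transport GTPase gene, with 2665, 2165 and 3138. Aamp and Khsrp, which encodes an RNA-binding protein, completed the 4 promoters that were highest in the sort where they were lowest. The most even was that of Aqr, a spliceosomal helicase gene, at 194, 194 and 192 per kb, and it was called in none of the sorts, with 50.1 and 51.7 normalized tags in WT against 81.4 and 48.3 in SgshKO microglia. Acyp1 and Naf1, which encodes an assembly factor of small nucleolar RNPs, were about as even in WT. At the other end stood Batf3, a transcription factor gene of immune cells, at 778, 61.4 and 4.52, Dnm3, a neuronal dynamin gene, at 17.9, 672 and 1386, and the 9530080O11Rik and Hook1 promoter at 12.4, 1164 and 102.

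The rule left out promoters whose peaks overlapped slightly less. Just inside the limit lay Mir3100 and Srxn1, each with a smallest overlap of 50.0%, and just outside it Rexo4 and Sgk1 with 49.9%. WT microglia had 10.2 and 167 normalized tags at the first pair and 50.9 and 43.7 at the second. WT NeuN+ nuclei had 7.92 and 43.8 at the first pair and 114.5 and 16.4 at the second. In WT Olig2+ nuclei these values were 16.5 and 40.5, then 108.6 and 88.8. So few promoters cannot tell whether the limit separated strong from weak ones.

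The shared promoters held more of the tags in SgshKO microglia and fewer in SgshKO NeuN+ nuclei. In microglia they held 10.5% and 9.18% of all tags in the WT libraries against 14.9% and 14.3% in the SgshKO libraries. In NeuN+ nuclei the shares were 8.70% and 8.26% for WT against 5.73% and 5.66% for SgshKO, and in Olig2+ nuclei 10.5% and 10.4% against 10.7% and 11.1%. Groups did not overlap in any sort, but the difference in Olig2+ nuclei was small. As a share of the tags that fell in peaks the order was the same: 18.8% and 18.8% against 22.1% and 26.6% in microglia, 32.6% and 31.9% against 26.6% and 26.7% in NeuN+ nuclei, and 33.0% and 32.6% against 34.5% and 34.8% in Olig2+ nuclei. A bulk library cannot tell fewer cells with an open promoter from a lower accessibility per cell.

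**Figure D1:**
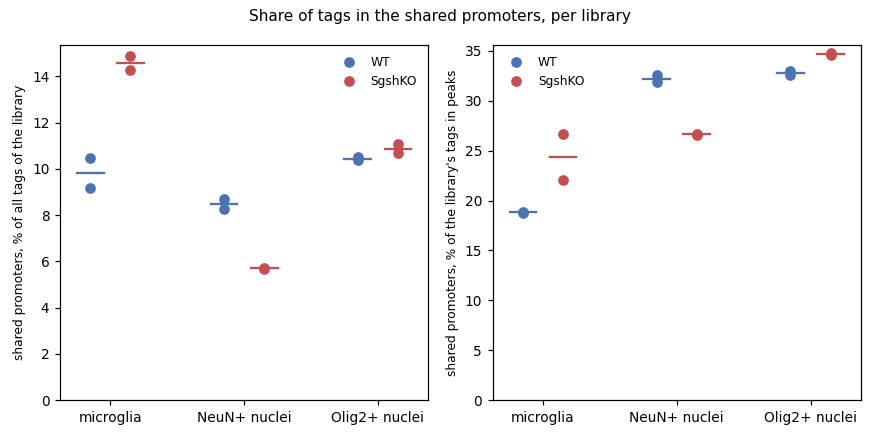
Share of each library's tags in the 8786 shared promoters (vertical axis, %), out of all its tags on the left and out of its tags in peaks on the right. Points are libraries and lines are means of 2; microglia rise from 9.18% to 10.5% in WT to 14.3% to 14.9% in SgshKO, NeuN+ nuclei fall from 8.26% to 8.70% in WT to 5.66% to 5.73% in SgshKO, and Olig2+ nuclei differ little.

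Tested peak by peak over each whole table, 1505 shared promoters were higher and 41 lower in SgshKO microglia (called at an adjusted p under 0.05), 17.1% and 0.467% of the set, against a background of 5.05% and 2.33% of all microglia peaks. In NeuN+ nuclei 74 were higher and 5484 lower (0.842% and 62.4%), against 10.2% and 19.6% of all NeuN+ peaks. In Olig2+ nuclei 1334 were higher and 732 lower (15.2% and 8.33%), against 8.17% and 11.7% of all Olig2+ peaks. The shared promoters also held more normalized tags than all peaks. Their medians of the mean over libraries were 95.9, 60.3 and 79.7 in microglia, NeuN+ and Olig2+ nuclei, against 30.3, 12.1 and 15.0. The part of that in the shares called was not tested. The median log2 change of the shared promoters was 0.34 for microglia, -0.58 for NeuN+ and 0.05 for Olig2+ nuclei, beside -0.08, -0.23 and -0.07 for all peaks. Promoter-TSS peaks outside the set had medians of -0.04, -0.47 and 0.04. In microglia the median outside the set was thus not shifted upward, although 394 of these peaks were called higher and 124 lower. In NeuN+ nuclei other promoters were lower as well. The promoters outside the set held fewer tags in microglia (a median of 37.1 against 95.9), and the part of level in this contrast was not tested. In microglia 72.4% of the shared promoters lay above 0, and in NeuN+ nuclei 7.97%.

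**Figure D2:**
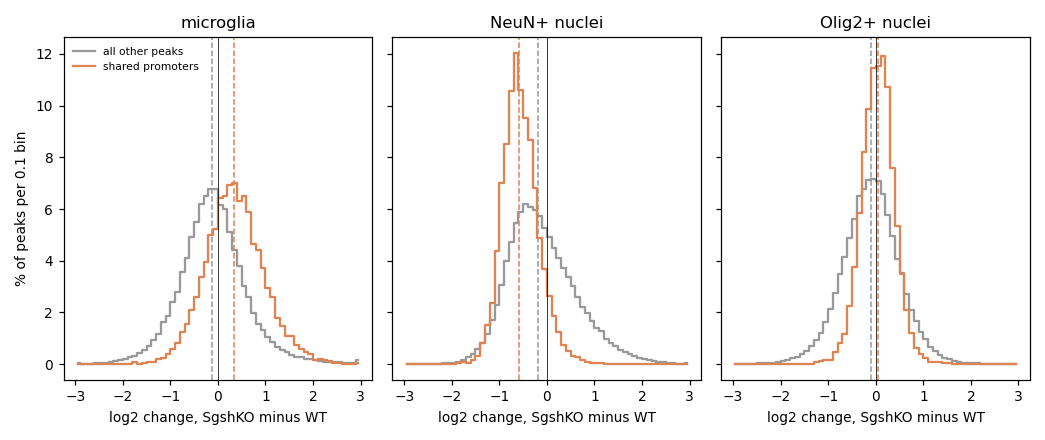
Distribution of the log2 change (SgshKO minus WT, horizontal axis, values beyond 3 placed in the end bins) of the shared promoters and of all other peaks in each sort, as % of peaks per 0.1 bin. Dashed lines are medians; those of the shared promoters stand at 0.34, -0.58 and 0.05.

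These counts depended on how libraries were put on 1 scale. With each library scaled to its in-peak sum, 1642 shared promoters were higher and 348 lower in microglia, and after quantile normalization 1408 and 236. In NeuN+ nuclei 516 were higher and 1295 lower after quantile normalization, and DESeq2 called 46 higher and 1409 lower. In Olig2+ nuclei the split was 1908 to 475 with median-of-ratios scaling, 2050 to 532 with edgeR and 797 to 111 with DESeq2. The median of all peaks moved with the scaling, from -0.08 as deposited to -0.28 with the in-peak sum in microglia and from -0.23 to 0.05 in NeuN+ nuclei. Relative to the median of all peaks, the shared promoters stood at 0.42 (microglia), -0.35 (NeuN+) and 0.12 (Olig2+) under the deposited scaling. With the in-peak sum, median-of-ratios scaling, edgeR and DESeq2 the first stayed between 0.41 and 0.42, the second between -0.35 and -0.33 and the third at 0.12, whereas quantile normalization gave 0.23, -0.09 and 0.07. The share of a library's tags inside peaks was 67.4% and 53.7% in SgshKO against 55.8% and 48.7% in WT microglia, with overlap, and 21.5% and 21.2% against 26.7% and 25.9% in NeuN+ nuclei, without. Its part in these counts was not tested. Endothelial markers (3 of 14 with a promoter peak) summed to 202 and 223 in WT and 347 and 410 in SgshKO microglia. Blood myeloid markers (6 of 15, without a peak at S100a8, S100a9, Ccr2 or Ly6c2) summed to 162 and 200 in WT and 209 and 343 in SgshKO. Their part was not tested either. In NeuN+ nuclei the neuron markers (18 of 22, without a peak at Dlgap1, Elavl4, Gad2 or Slc17a6) summed to 1588 and 1499 in WT against 879 and 879 in SgshKO, and the oligodendrocyte markers (6 of 22) to 254 and 223 against 117 and 125. Both sums moved with the NeuN+ decrease, and their part in it was not tested. The microglia count rested on both WT libraries, since 389 promoters were called without WT replicate 1 and 195 without WT replicate 2, against 2437 and 2449 without SgshKO replicate 1 or 2. The model of all 12 libraries, in which a lone library is assumed to vary like the other groups, called 3531 higher and 396 lower in microglia, and 3673 and 2857 promoters in all without WT replicate 1 or 2. In NeuN+ nuclei 0 promoters were called by limma without either SgshKO library (5221 without replicate 1 and 5050 without replicate 2 at an unadjusted p under 0.05), whereas the model of all 12 libraries called 4104 and 3877.

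Named promoters are the largest called changes among those with a mean level at or above the median of the set and no overlap between genotypes, and those with the smallest p in a gene list. The 4 largest increases in microglia (Pknox1, Fau, Fam210b and Ulk1) were at promoters with fewer tags per kb in WT microglia than in WT nuclei. The promoter of Pknox1, a homeobox transcription factor gene (chr17:31564435-31564668), had 49.3 and 43.2 normalized tags in WT against 314 and 645 in SgshKO. Its log2 change was 3.26 ± 0.31 (SE, adjusted p = 7.8e-09, limma with Benjamini-Hochberg adjustment, as below). It stood at 581 and 537 in WT against 312 and 299 in SgshKO NeuN+ nuclei, and at 851 and 807 in WT against 794 and 853 in SgshKO Olig2+ nuclei. The SgshKO microglia libraries thus lay within the range of the nuclei, and the NeuN+ libraries were lower in SgshKO (-0.87 ± 0.07, adjusted p = 2.5e-07).

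Fau, which encodes a ribosomal protein made as a fusion with a ubiquitin-like domain and shares its peak with Mrpl49, had 35.4 and 37.3 normalized tags in WT against 277 and 353 in SgshKO microglia (3.07 ± 0.30, adjusted p = 1.3e-08). Its NeuN+ libraries held 174 and 139 in WT against 108 and 105 in SgshKO, a decrease that was called (-0.54, adjusted p = 0.003) but came out at 0.02 after quantile normalization. Fam210b, a gene for a mitochondrial protein, had 97.7 and 64.4 normalized tags in WT against 516 and 774 in SgshKO microglia (2.98 ± 0.28). Ulk1 encodes the kinase that starts autophagy. Its promoter had 106 and 90.7 normalized tags in WT against 595 and 788 in SgshKO microglia (2.79 ± 0.27, adjusted p = 8.6e-09). In NeuN+ nuclei the same promoter fell (332 and 354 in WT against 195 and 197 in SgshKO, -0.80 ± 0.08), and in Olig2+ nuclei it had 491 and 456 in WT against 456 and 463 in SgshKO (adjusted p = 0.69).

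Plrg1, Eif4ebp2, Fzr1 and Esrra were further promoters with large increases in microglia. Plrg1 encodes a spliceosome component, and its promoter had 76.9 and 68.6 normalized tags in WT against 405 and 501 in SgshKO (2.62 ± 0.28). Eif4ebp2 encodes a repressor of cap-dependent translation, and its promoter had 181 and 172 normalized tags in WT against 826 and 827 in SgshKO (2.22 ± 0.25). The promoter of Fzr1, which encodes an activator of the anaphase-promoting complex, had 213 and 185 normalized tags in WT against 722 and 1106 in SgshKO (2.16 ± 0.26). Esrra, a nuclear receptor gene that regulates mitochondrial genes, was open at 314 and 292 normalized tags in WT against 1072 and 1192 in SgshKO (1.90 ± 0.24), and here the SgshKO libraries exceeded every library of the nuclei. It fell in both nuclei, to 237 and 215 in NeuN+ (-0.89 ± 0.08) and to 334 and 336 in Olig2+ nuclei (-0.44 ± 0.07).

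Decreases in microglia were few. Gpr165, an orphan receptor gene on the X chromosome, had 213 and 182 normalized tags in WT against 82.2 and 35.3 in SgshKO (-1.85 ± 0.33, adjusted p = 3.1e-04), against at most 62.9 in any library of the nuclei. Cpox, a gene of heme synthesis, had 141 and 133 normalized tags in WT against 71.0 and 64.1 in SgshKO (-1.01 ± 0.31), and Synm, which encodes the intermediate filament protein synemin, 186 and 167 in WT against 100.4 and 83.5 in SgshKO (-0.94 ± 0.29). The 4933406I18Rik promoter had 328 and 289.7 in WT against 173 and 136 in SgshKO (adjusted p = 0.018). Each of the latter 3 lost its call when either WT library was left out, and Gpr165 when WT replicate 1 was.

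Over the whole set, the microglia change followed the level that the promoter had in WT nuclei. The promoters were split into 4 classes of near-equal size by their mean level in WT nuclei. In the lowest class 77 of 2197 were higher and 26 lower in SgshKO microglia, with a median log2 change of -0.03. In the following classes 8.29% and 17.4% were higher, with medians of 0.24 and 0.43. In the highest class 865 of 2197 (39.4%) were higher and 1 was lower, with a median of 0.69. The level in WT microglia rose over the same classes, with medians of 172, 271, 374 and 583 normalized tags per kb, and its part in the shares called was not tested. The rank correlation between the microglia change and the WT level was 0.45 with the NeuN+ and 0.45 with the Olig2+ level, over 8786 promoters. This is a description over regions, and no library enters both sides of it. Levels of SgshKO microglia libraries had rank correlations of 0.57 to 0.62 with WT NeuN+ and 0.58 to 0.64 with WT Olig2+ libraries, against 0.49 to 0.52 for WT microglia.

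In NeuN+ nuclei the decreases were broad, with large ones at Mical2, Ndfip1, Sun2, Gpc5 and Klf7. Mical2, which encodes an enzyme that oxidises actin (chr7:112225679-112225884), had 219.8 and 199.9 normalized tags in WT against 74.7 and 62.9 in SgshKO NeuN+ nuclei (-1.60 ± 0.12, adjusted p = 1.9e-07). In microglia the same promoter was higher, at 325 and 326 in WT against 667 and 525 in SgshKO (0.86 ± 0.25, adjusted p = 0.027). Ndfip1, the gene of an adaptor of NEDD4-type ubiquitin ligases, fell in NeuN+ nuclei (121 and 116 in WT against 44.7 and 36.8 in SgshKO, -1.53 ± 0.15), as did Sun2, which encodes an inner nuclear membrane protein (115 and 97.7 in WT against 36.3 and 40.0 in SgshKO, -1.45 ± 0.15), and Gpc5, which encodes a cell-surface heparan sulfate proteoglycan (125 and 122 in WT against 44.7 and 45.7 in SgshKO, -1.43 ± 0.14). Klf7 encodes a Krüppel-like factor expressed in neurons, and its promoter fell from 252 and 276 to 111 and 120.0 (-1.19 ± 0.10). The libraries of the genotypes did not overlap at any of these promoters, but the rule for the largest changes required this, so it adds no support. All 5 decreases were called under every scaling tried and, like all NeuN+ calls of the separate table, lost without either SgshKO library.

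Of the 74 increases in NeuN+ nuclei the largest at a promoter of at least median level, at the pseudogene Pisd-ps3, lies on an unplaced contig with close copies elsewhere, so its reads are uncertain. It had 438 and 485 normalized tags in WT against 1185 and 1218 in SgshKO NeuN+ nuclei. Fbxo16, an F-box protein gene, had 53.2 and 70.6 normalized tags in WT against 152 and 125 in SgshKO (1.16 ± 0.15, adjusted p = 2.6e-05). Nudcd2, whose peak also covers the start of Hmmr, had 44.8 and 58.2 in WT against 103 and 95.2 in SgshKO (0.95 ± 0.15), and Poc5, a centriole protein gene, 52.7 and 46.3 in WT against 84.5 and 97.1 in SgshKO (0.86 ± 0.15). Poc5 was 1 of 4 promoters higher in both microglia and NeuN+ nuclei, with Cdca2, Chordc1 and Hnrnph1, which were picked out after their values were seen. These 4 made up 0.046% of the set, near the 0.042% of all one-to-one peaks.

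**Figure D3:**
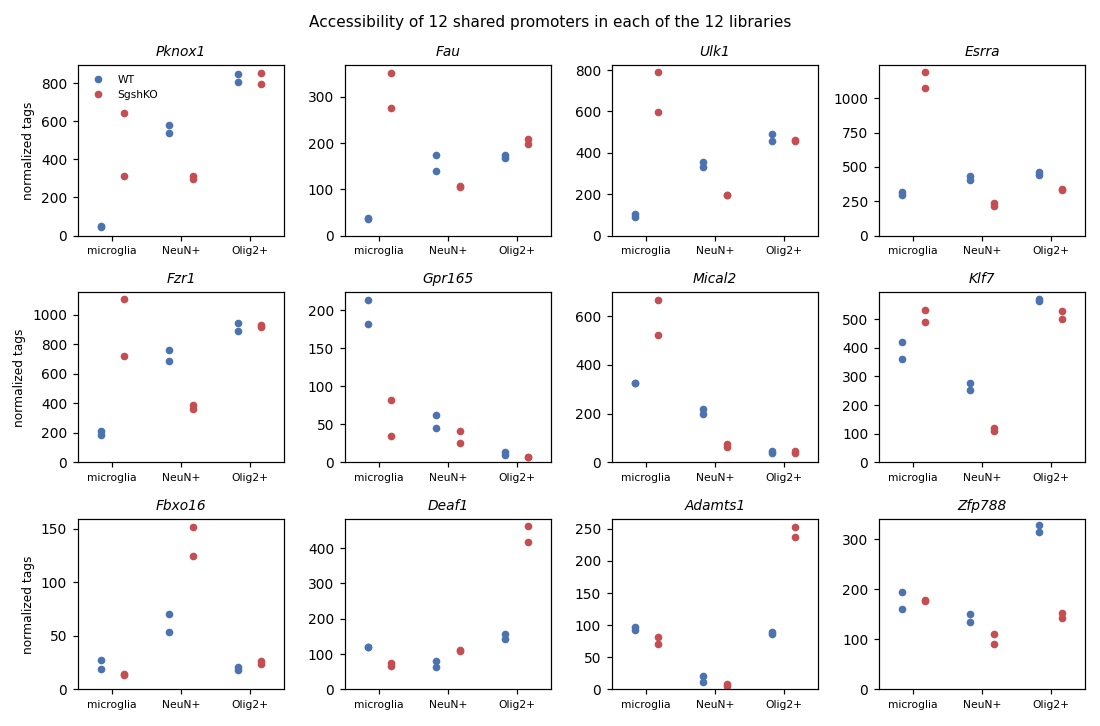
Normalized tags (vertical axis, from 0) of 12 shared promoters in each of the 12 libraries, WT and SgshKO side by side in each sort. Pknox1, Fau, Ulk1 and Fzr1 rise in microglia towards or past the level of the nuclei, Gpr165 falls in microglia, Mical2 and Klf7 fall in NeuN+ nuclei, and Deaf1 and Adamts1 rise in Olig2+ nuclei.

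In Olig2+ nuclei the changes were smaller and went both ways. The largest increase among promoters of at least median level was at Deaf1, a transcription factor gene whose peak also covers the start of Tmem80. It had 158 and 144 normalized tags in WT against 417 and 462 in SgshKO Olig2+ nuclei (1.53 ± 0.08, adjusted p = 4.8e-14). It was also higher in NeuN+ nuclei (64.6 and 80.8 in WT against 107 and 112 in SgshKO, 0.60 ± 0.14, adjusted p = 0.0035, lost without WT replicate 1 or either SgshKO library), while microglia had 120.1 and 119 in WT against 75.3 and 66.8 in SgshKO (-0.75 ± 0.31, adjusted p = 0.14). Adamts1, a secreted metalloprotease gene, had 86.6 and 89.0 normalized tags in WT against 237 and 253 in SgshKO (1.47 ± 0.11), and Fam20c, which encodes a kinase of the secretory pathway, 47.2 and 50.6 in WT against 130.3 and 120.3 in SgshKO (1.34 ± 0.14).

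Decreases in Olig2+ nuclei included Pnpla7, a lysophospholipase gene, at 113 and 129.9 normalized tags in WT against 43.0 and 57.2 in SgshKO (-1.27 ± 0.15), which in microglia was higher (483 and 435 in WT against 1003 and 993 in SgshKO, 1.12 ± 0.24, a call lost without either WT library). Zfp788, a zinc finger gene, fell from 313 and 328 to 152 and 142 (-1.12 ± 0.09, adjusted p = 2.0e-10). Coa3, a gene for assembly of cytochrome c oxidase that shares its peak with Cntd1, and 2610001J05Rik fell as well (-0.85 ± 0.14 and -0.98 ± 0.14). Narf had 601 and 598 in WT against 398 and 403 in SgshKO Olig2+ nuclei (-0.58 ± 0.06).

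Of the 8786 promoters, 4122 (46.9%) were called in 1 sort, 1942 (22.1%) in 2 sorts, 388 (4.42%) in all 3 and 2334 (26.6%) in none. Over all one-to-one peaks these shares were 44.2%, 16.7%, 2.76% and 36.3%. With limma, 0 were called in the same direction in all 3 tables, against 18 of the 16740 one-to-one peaks (0.108%). At an unadjusted p under 0.05 the number was 28, with edgeR 21 and with DESeq2 3. The most frequent pair of calls was higher in microglia and lower in NeuN+ nuclei, at 1212 promoters (13.8%, against 8.38% of all one-to-one peaks), followed by lower in NeuN+ and higher in Olig2+ nuclei at 926 (10.5%, against 6.82%). Lower in both nuclei came next with 452 (5.14%), which was no more than the 5.17% of all one-to-one peaks. Of the 1212, 828 were not called in Olig2+ nuclei, 275 were higher and 109 lower there. The opposite combination, lower in microglia and higher in NeuN+ nuclei, was called at 0 promoters by limma and 0 by DESeq2, at 4 by edgeR and at 3 at an unadjusted p under 0.05. By limma it was likewise called at 0 of the 16740 one-to-one peaks.

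Esrra, Cry2, Galns, Fkbp3 and Orc6 were higher in microglia and lower in both nuclei, although the Olig2+ calls of Cry2, Galns and Fkbp3 were lost with median-of-ratios scaling, edgeR and DESeq2, and the NeuN+ call of Orc6 with in-peak scaling, quantile normalization and DESeq2. Galns encodes a lysosomal sulfatase, and its promoter had 130.5 and 130.5 normalized tags in WT against 358 and 466 in SgshKO microglia, 436 and 375 in WT against 176 and 211 in SgshKO NeuN+ nuclei, then 430.5 and 441 in WT against 374 and 382 in SgshKO Olig2+ nuclei. Ikbip, whose peak also covers the start of Apaf1, was higher in microglia (1.54 ± 0.32) and Olig2+ nuclei (0.68 ± 0.07) and lower in NeuN+ nuclei (-0.86 ± 0.08). Gm2a, the gene of the lysosomal GM2 activator, followed the same pattern, with 143 and 146 normalized tags in WT against 468 and 676 in SgshKO microglia, 313 and 319 in WT against 259.6 and 232 in SgshKO NeuN+ nuclei, then 407 and 399 in WT against 501 and 507 in SgshKO Olig2+ nuclei. The NeuN+ decrease of Gm2a changed sign after quantile normalization and lost its call with in-peak and median-of-ratios scaling, edgeR and DESeq2.

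Differences between sorts in the effect of the genotype were tested in 1 model of all 12 libraries over the 16740 one-to-one peaks. That model gives each peak 1 spread, shared by all 6 groups. For the genotype within a sort it called 3927 shared promoters in microglia and 366 in Olig2+ nuclei. The separate tables, each with its own spread, called 1546 and 2066. The SEs, p-values and counts of the contrasts hold only as far as the sorts vary alike, which was not tested. The change in microglia minus that in NeuN+ nuclei was called at 5315 shared promoters (60.5%), against 42.5% of all one-to-one peaks, and it was above 0 at 5253 of them (median difference 0.90 over the set). Microglia minus Olig2+ nuclei was called at 2644 (30.1%, against 21.6%), above 0 at 2343. NeuN+ minus Olig2+ nuclei was called at 3852 (43.8%, against 31.7%), above 0 at 51. The mean effect over the sorts was called at 1957 promoters (22.3%, against 27.7%), 876 above and 1081 below 0. That split turned with the scaling, to 1016 above and 894 below with the in-peak sum, 1360 and 413 with median-of-ratios scaling, 1418 and 692 after quantile normalization and 1415 and 426 with edgeR, and also to 1033 and 728 without microglia WT replicate 1 and to 655 and 621 without NeuN+ WT replicate 1.

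Ulk1 and Plrg1 gave the smallest p for microglia minus NeuN+ nuclei, with differences of 3.59 ± 0.19 (SE, adjusted p = 2.9e-11) and 3.40 ± 0.20 (SE, adjusted p = 4.5e-11). For microglia minus Olig2+ nuclei they were Ulk1 at 2.83 ± 0.19 (SE, adjusted p = 4.7e-09) and Esrra at 2.33 ± 0.16 (SE, adjusted p = 5.1e-09). Between the nuclei the pair was St3gal1, a sialyltransferase gene, at -2.02 ± 0.20 (SE, adjusted p = 8.5e-06) and the ncRNA gene A330009N23Rik at -2.15 ± 0.23 (SE, adjusted p = 1.4e-05). St3gal1 had 166 and 157 normalized tags in WT against 71.2 and 62.2 in SgshKO NeuN+ nuclei, with 84.5 and 79.8 in WT against 141 and 137 in SgshKO Olig2+ nuclei, while microglia had 424 and 386 in WT against 549.8 and 459 in SgshKO. A330009N23Rik went from 127 and 105 to 53.8 and 43.8 in NeuN+ nuclei, and from 59.1 and 50.1 to 105 and 102 in Olig2+ nuclei.

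RefSeq windows were matched for 6323 of the 8786 promoters (71.97%), under the 80% that a check of base composition over the set needs. Such a check is therefore void, because the table of windows is not complete, and the following describes the matched promoters only. Their median changes were 0.38, -0.58 and 0.05 in microglia, NeuN+ and Olig2+ nuclei, against 0.20, -0.58 and 0.04 for the unmatched. Their median GC content was 62.3% against 52.7% for all 32851 windows, and the ratio of observed to expected CpG 0.82 against 0.38. A ratio above 0.6 was found in 85.2% of matched windows and 35.8% of all. The GC box word was held by 73.6% (35.7% of all windows), the ETS word by 22.4% (8.86%), the NRF1 word by 6.77% (2.71%), the YY1 word by 3.97% (1.40%), the cAMP response element by 3.99% (1.79%), the E-box by 11.7% (7.15%) and its CLEAR-type form by 2.44% (0.974%). CCAAT differed less (41.9% and 37.4%), as did the ZNF143 word (4.73% and 3.24%) and CTTTCC, a pyrimidine word at starts of translation genes (24.96% and 26.6%). TATAAA was rarer than in all windows (5.39% and 13.6%), and so was the PU.1 word (2.23% and 3.202%). The PU.1 word overlaps the ETS core, and windows rich in GC hold GC-rich words more often.

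The genotype change ran with GC content in opposite directions in the nuclei. From the lowest to the highest of 4 classes of GC content (median 53.3%, 60.0%, 65.3% and 72.3%), the median log2 change in NeuN+ nuclei was -0.33, -0.52, -0.65 and -0.73. In Olig2+ nuclei it was -0.13, -0.01, 0.10 and 0.22. In the lowest class 56 promoters were higher and 245 lower in Olig2+ nuclei, and in the highest class 487 were higher and 30 lower. The rank correlation with GC content was -0.43 in NeuN+, 0.43 in Olig2+ nuclei and 0.12 in microglia, over 6323 promoters that share their libraries, and carries no p. In microglia the classes had medians of 0.23, 0.42, 0.51 and 0.37.

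In microglia larger changes went with the presence of a GC box. Matched promoters with the word were called higher in 23.1% of cases and those without it in 5.98%, with median changes of 0.48 and 0.14. The same gap was present in each class of GC content: 14.2% against 3.71% were higher in the lowest, 22.9% against 6.65% and 29.1% against 11.8% in the middle ones, and 22.5% against 6.48% in the highest. Promoters with the word also had more tags in microglia (medians of 80.2 against 56.5 in the lowest class and 130 against 85.0 in the highest). The part of that in the counts was not tested. The median changes were 0.42 against 0.08 in the lowest and 0.39 against 0.13 in the highest class. In Olig2+ nuclei the medians with and without the word were -0.10 and -0.16 in the lowest class and 0.23 and 0.20 in the highest. In NeuN+ nuclei they were -0.41 and -0.27, and -0.74 and -0.66.

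**Figure D4:**
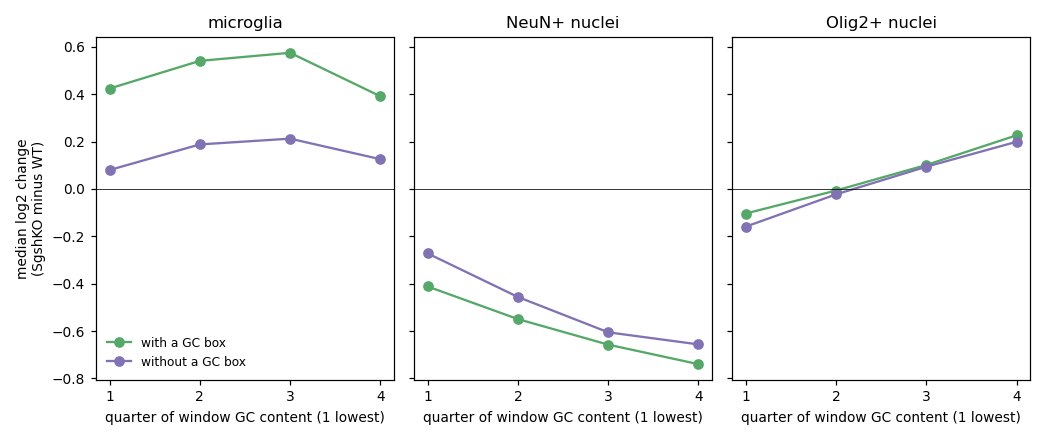
Median log2 change (SgshKO minus WT, vertical axis) of matched shared promoters with and without a GC box, in 4 classes of window GC content (1 lowest). In microglia the 2 lines lie apart in every class, whereas in NeuN+ and Olig2+ nuclei both lines move with GC content, downward from -0.41 and -0.27 and upward from -0.10 and -0.16.

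Of the other words, the E-box went with a higher share of increases in microglia (23.8% with and 17.9% without it), as did its CLEAR-type form (26.0% of 154 and 18.4%), and the ZNF143 word with a lower share (9.36% and 19.04%). These shares were not split by GC content, level or presence of a GC box, and the part of those was not tested. Ulk1 and Plrg1, printed above with 5 and 8 GC boxes, were among the largest increases. Nudt9, with the CLEAR-type match, had 132 and 114 normalized tags in WT against 236 and 262 in SgshKO microglia (1.02 ± 0.28, adjusted p = 0.019) and 226 and 216 in WT against 358 and 345 in SgshKO Olig2+ nuclei (0.67 ± 0.08), a nucleotide hydrolase gene that was not called in NeuN+ nuclei. Pip5k1c, a lipid kinase gene with an E-box, had 253 and 215 in WT against 454 and 524 in SgshKO microglia (1.06 ± 0.26) and 441 and 446 in WT against 221 and 226 in SgshKO NeuN+ nuclei (-0.98 ± 0.07). Fkbp3, a nuclear prolyl isomerase gene with the YY1 word, had 164 and 151 in WT against 598 and 595 in SgshKO microglia (1.92 ± 0.26) and 353 and 318 in WT against 158 and 164 in SgshKO NeuN+ nuclei (-1.06 ± 0.09). A match describes the letters of the window and is no evidence of binding.

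Gene groups were described over their shared promoters only, and since members were chosen with results known these counts carry no test of their own. Over 19 functional lists (728 promoters) 118 promoters were higher and 0 lower in SgshKO microglia with limma, against 17.1% and 0.467% of the whole set. The counts of each list below are to be read against these shares, and in the nuclei against the 62.4% of the whole set that were lower in NeuN+ and the 15.2% higher and 8.33% lower in Olig2+ nuclei. At an unadjusted p under 0.05 they were 259 and 7, with edgeR 253 and 3, and with DESeq2 139 and 0. List medians ranged from 0.20 to 0.69 in microglia, from -0.77 to -0.35 in NeuN+ nuclei and from -0.10 to 0.16 in Olig2+ nuclei. After quantile normalization every functional list had fewer NeuN+ decreases. Spliceosome genes went from 28 lower to 2 lower and 7 higher, and core autophagy from 20 lower to 0 lower and 3 higher. Chromatin regulators went from 45 lower to 6 lower and 4 higher, and the proton pump from 12 lower to 0 lower and 1 higher. Most were left for lysosomal and immediate-early genes, with 9 lower each. Of the microglia increases named here, those of Pknox1, Fau, Fam210b, Ulk1, Plrg1, Eif4ebp2, Fzr1, Esrra, Fkbp3, Galns, Gm2a, Eif5a, Ccne1, Hsf1, Atp6v1g1 and Bhlhe40 remained called when any 1 library was left out, and the others were lost without WT replicate 2, most of them also without WT replicate 1. Of the 192 called changes of named promoters in any sort, 55 were no longer called by DESeq2 and 22 by edgeR.

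**Figure D5:**
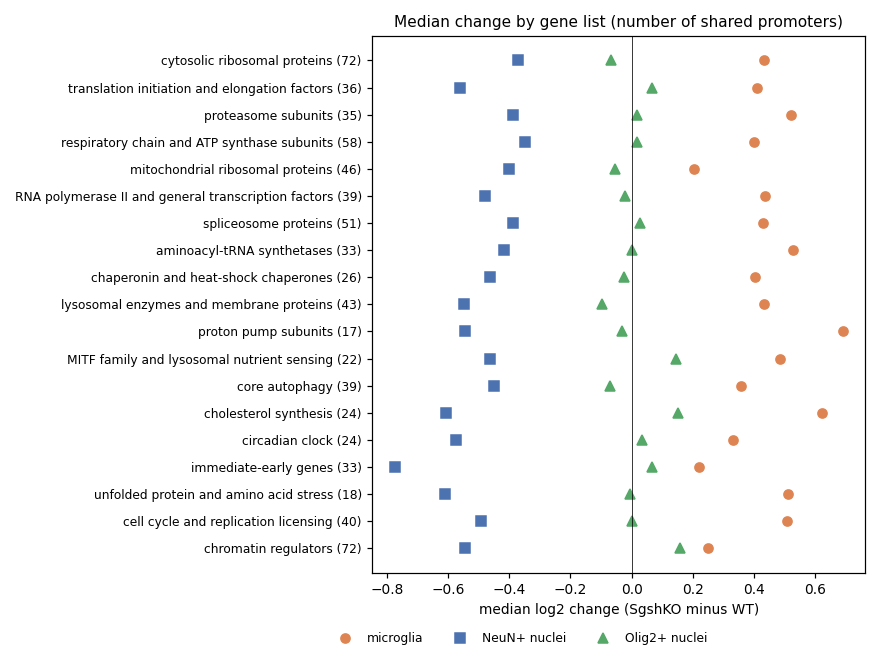
Median log2 change (horizontal axis) of the shared promoters of 19 gene lists in the 3 sorts, with the number of promoters in parentheses. All 19 microglia medians lie above 0 and all 19 NeuN+ medians below 0, except that 2 lists in microglia and 4 in NeuN+ nuclei change sign under another scaling, and 7 lists in Olig2+ nuclei do.

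Genes that make proteins and RNA had many members. Of 72 promoters of cytosolic ribosomal proteins, 12 were higher and 0 lower in microglia, 2 higher and 28 lower in NeuN+ nuclei, and 5 higher and 8 lower in Olig2+ nuclei, a split that became 10 and 4 with median-of-ratios scaling. In NeuN+ nuclei the list's median of -0.37 became 0.04 after quantile normalization. Beside Fau stood Rpl31, with 179.8 and 138 normalized tags in WT against 499 and 421 in SgshKO microglia (1.53 ± 0.27) and 252 and 269 in WT against 129.8 and 136 in SgshKO NeuN+ nuclei (-0.97 ± 0.09). Rpsa was higher in Olig2+ nuclei (172 and 149 in WT against 244 and 243 in SgshKO, 0.60 ± 0.10). Translation factors had 8 higher of 36 in microglia and 24 lower in NeuN+ nuclei, with Eif5a at 75.2 and 95.7 in WT against 274 and 356 in SgshKO microglia (1.87 ± 0.29). Spliceosome genes had 8 higher of 51 in microglia, 28 lower in NeuN+ and 10 higher and 5 lower in Olig2+ nuclei. Lsm4, of the ring that binds U6 RNA, had 35.4 and 31.3 in WT against 133 and 111 in SgshKO microglia (1.84 ± 0.33), and U2af2, the large subunit of the splice-site factor U2AF, 118 and 138 in WT against 202 and 209 in SgshKO Olig2+ nuclei (0.68 ± 0.10).

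RNA polymerase II and general transcription factors had 3 higher of 39 in microglia, 18 lower in NeuN+ nuclei and 9 higher in Olig2+ nuclei. Ccnt2, a cyclin of the elongation factor P-TEFb, was higher in microglia (1.70 ± 0.29) and in Olig2+ nuclei (413 and 426 in WT against 608 and 620.2 in SgshKO, 0.55 ± 0.06). Aminoacyl-tRNA synthetases had 5 higher of 33 in microglia, led by Cars (1.41 ± 0.28), and 16 lower in NeuN+ nuclei. Chromatin regulators had 9 higher of 72 in microglia, 45 lower in NeuN+ nuclei, and 15 higher and 2 lower in Olig2+ nuclei. Smarca4, an ATPase of the BAF remodelling complex, had 75.2 and 72.01 in WT against 188 and 252 in SgshKO microglia (1.55 ± 0.29), and its relative Smarca2 343 and 298 in WT against 179 and 180.3 in SgshKO NeuN+ nuclei (-0.83 ± 0.09). Kdm3a, a histone demethylase, was higher in Olig2+ nuclei (0.52 ± 0.09). Cell cycle and replication licensing genes had 11 higher of 40 in microglia and 21 lower in NeuN+ nuclei. Ccne1, which encodes cyclin E1, had 81.2 and 89.0 in WT against 259 and 375 in SgshKO microglia (1.86 ± 0.29) and 387 and 344 in WT against 211 and 211 in SgshKO NeuN+ nuclei (-0.79 ± 0.08).

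Among mitochondrial genes, 10 of 58 promoters of the respiratory chain and ATP synthase were higher in microglia, 26 lower in NeuN+ nuclei (a median of -0.35, or 0.01 after quantile normalization), and 3 higher and 4 lower in Olig2+ nuclei. Ndufv3, a complex I subunit, had 249.8 and 181 normalized tags in WT against 511 and 620.1 in SgshKO microglia (1.40 ± 0.26) and 245 and 240.0 in WT against 141 and 115 in SgshKO NeuN+ nuclei (-0.93 ± 0.10). Cox5b, a complex IV subunit, was higher in Olig2+ nuclei (148 and 137 in WT against 205 and 215 in SgshKO, 0.56 ± 0.10). Mitochondrial ribosomal proteins had 5 higher of 46 in microglia, 19 lower in NeuN+ nuclei (a median of -0.40, or 0.02 after quantile normalization), and 2 higher and 7 lower in Olig2+ nuclei, or 7 and 3 with median-of-ratios scaling. The list had a microglia median of 0.20 that the in-peak scaling took to -0.00080. Mrps14 was their most clearly changed member in microglia (91.6 and 58.5 in WT against 237 and 235 in SgshKO, 1.68 ± 0.30).

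Among genes of protein quality control, proteasome subunits had 3 higher of 35 in microglia and 14 lower in NeuN+ nuclei, and Adrm1, the ubiquitin receptor of the proteasome, had 302 and 271 normalized tags in WT against 138 and 163 in SgshKO NeuN+ nuclei (-0.93 ± 0.10) but 239 and 265 in WT against 340.0 and 370.2 in SgshKO Olig2+ nuclei (0.49 ± 0.08). Chaperone genes had 5 higher of 26 in microglia, 13 lower in NeuN+ nuclei, and 2 higher and 8 lower in Olig2+ nuclei. Hsf1, the heat-shock transcription factor, had 276 and 252 normalized tags in WT against 948 and 782 in SgshKO microglia (1.70 ± 0.25). Hsp90ab1, a cytosolic HSP90, had 137 and 124 in WT against 49.6 and 49.5 in SgshKO NeuN+ nuclei (-1.38 ± 0.13), and Dnajb4, a DNAJ co-chaperone, 99.6 and 92.6 in WT against 51.0 and 41.2 in SgshKO Olig2+ nuclei (-1.05 ± 0.15). Genes of the unfolded protein and amino acid stress response had 3 higher of 18 in microglia, with Ddit3 (CHOP) at 275 and 235 in WT against 535 and 669 in SgshKO (1.23 ± 0.25), and 15 lower in NeuN+ nuclei, with Ddit4 at 256 and 219 in WT against 122 and 128 in SgshKO (-0.91 ± 0.10).

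The lysosomal promoters were examined because Sgsh encodes a lysosomal enzyme. Of 43 promoters of lysosomal enzymes and membrane proteins, 7 (16.3%) were higher and 0 lower in microglia, 25 (58.1%) were lower in NeuN+ nuclei, and 6 were higher and 5 lower in Olig2+ nuclei. The first 2 shares were slightly below those of the whole set (17.1% and 62.4%). Mcoln1, a lysosomal calcium channel, had 138 and 137 normalized tags in WT against 191 and 201 in SgshKO Olig2+ nuclei (0.51 ± 0.10). The proton pump that acidifies lysosomes had 6 higher of 17 in microglia, 12 lower in NeuN+ nuclei, and 2 higher and 1 lower in Olig2+ nuclei. Its subunit gene Atp6v1g1 had 63.1 and 64.4 normalized tags in WT against 226 and 289 in SgshKO microglia (1.99 ± 0.29, adjusted p = 2.0e-05). Atp6v0b had 123 and 117 in WT against 64.2 and 69.2 in SgshKO NeuN+ nuclei (-0.84 ± 0.13), and Atp6v1b2 was called in all 3 sorts (1.55 in microglia, -0.61 in NeuN+ and 0.49 in Olig2+ nuclei).

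The list of the MITF family and lysosomal nutrient sensing had 2 higher of 22 in microglia, 12 lower in NeuN+ nuclei (a median of -0.46 that became 0.03 after quantile normalization) and 4 higher in Olig2+ nuclei. Rheb, the GTPase that activates mTORC1, had 143 and 87.3 normalized tags in WT against 236 and 276 in SgshKO microglia (1.18 ± 0.29), and Lamtor1, of the Ragulator complex, 191 and 169.8 in WT against 253 and 271 in SgshKO Olig2+ nuclei (0.53 ± 0.09). Fnip2, a partner of folliculin, had 205 and 184 in WT against 101 and 97.8 in SgshKO NeuN+ nuclei (-0.96 ± 0.11). The shared promoters of the MITF family itself had 96.8 and 86.4 in WT against 116 and 95.6 in SgshKO (Mitf), 342 and 328 in WT against 542 and 382 in SgshKO (Tfeb) and 218 and 189 in WT against 307 and 328 in SgshKO (Tfe3) microglia, with adjusted p of 0.75, 0.32 and 0.14. In NeuN+ nuclei Tfe3 (-0.63 ± 0.13) and Mitf (-0.43 ± 0.11) were lower, the latter with a change of sign after quantile normalization. Core autophagy genes, to which Ulk1 belongs, had 8 higher of 39 in microglia, 20 lower in NeuN+ nuclei, and 5 higher and 2 lower in Olig2+ nuclei. Nbr1, an autophagy receptor, had 379 and 378 in WT against 264 and 256 in SgshKO Olig2+ nuclei (-0.54 ± 0.07).

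The promoter of Sgsh itself was a member of the set. It had 184 and 162 in WT against 257 and 259.9 in SgshKO microglia (adjusted p = 0.2), 34.5 and 22.6 in WT against 9.07 and 13.3 in SgshKO NeuN+ nuclei (-1.27 ± 0.28, adjusted p = 0.0026, not called by DESeq2) and 65.9 and 74.2 in WT against 60.9 and 69.1 in SgshKO Olig2+ nuclei (adjusted p = 0.65). The genotype labels cannot be checked from how open this promoter was.

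Of 24 promoters of cholesterol synthesis, 7 were higher and 0 lower in microglia, 21 lower in NeuN+ nuclei, and 9 higher and 1 lower in Olig2+ nuclei, with medians of 0.62, -0.61 and 0.15. Insig1, which retains the SREBP pathway in the endoplasmic reticulum, had 237 and 199 normalized tags in WT against 384 and 525 in SgshKO microglia (1.04 ± 0.26), 377 and 383 in WT against 230.3 and 229 in SgshKO NeuN+ nuclei (-0.73 ± 0.07), with 564 and 528 in WT against 699.7 and 770.4 in SgshKO Olig2+ nuclei (0.43 ± 0.06). Msmo1, a sterol demethylation enzyme, fell in NeuN+ nuclei (-0.72 ± 0.07) and rose in Olig2+ nuclei (0.28 ± 0.07, lost without WT or SgshKO replicate 2), and Srebf1, a transcription factor of lipid synthesis, rose in microglia (1.25 ± 0.27). After quantile normalization the 21 NeuN+ decreases were no longer called, 3 promoters were higher and the median was -0.08.

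Clock genes had 24 promoters, of which 4 were higher in microglia, 19 lower in NeuN+ nuclei, and 5 higher and 7 lower in Olig2+ nuclei. Bhlhe40, a repressor in the clock, had 87.3 and 114 normalized tags in WT against 302 and 388 in SgshKO microglia (1.77 ± 0.28) and 160.3 and 162 in WT against 247 and 241 in SgshKO Olig2+ nuclei (0.60 ± 0.09). Cry2, a core repressor, had 291 and 306 in WT against 645 and 742 in SgshKO microglia (1.21 ± 0.25) and 452 and 402 in WT against 181 and 219 in SgshKO NeuN+ nuclei (-1.10 ± 0.09). Dbp, a clock output gene, had 106 and 95.6 in WT against 48.6 and 45.2 in SgshKO Olig2+ nuclei (-1.09 ± 0.15). The labels give no time of day for any library.

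Immediate-early genes, which respond to neuronal activity and stress, had the lowest median of the 19 lists in NeuN+ nuclei (-0.77), with 23 of 33 promoters lower (69.7%, near the 62.4% of the whole set). In microglia 2 were higher, with a median of 0.22 that turned to -0.04 after quantile normalization, and in Olig2+ nuclei 5 were higher and 3 lower. Nr4a3, an orphan nuclear receptor gene, had 171 and 176 normalized tags in WT against 69.8 and 67.3 in SgshKO NeuN+ nuclei (-1.33 ± 0.12, adjusted p = 8.0e-07). Its relative Nr4a1 went the opposite way in the 2 sorts of nuclei, with 190.3 and 177 in WT against 116 and 109 in SgshKO NeuN+ (-0.70 ± 0.10), with 74.7 and 68.5 in WT against 116 and 132 in SgshKO Olig2+ nuclei (0.78 ± 0.13). Gadd45b, a stress-response gene, had 249.8 and 184 in WT against 489 and 511 in SgshKO microglia (1.22 ± 0.26).

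Few cell type markers had a shared promoter. Tubb3, a neuronal tubulin gene, had 138 and 119.7 in WT against 62.8 and 73.7 in SgshKO NeuN+ nuclei (-0.91 ± 0.13). Aldoc, an astrocyte marker, rose in microglia from 10.4 and 10.2 to 45.0 and 34.4 (1.84 ± 0.43), and Slc2a1, the glucose transporter gene of endothelium, from 130.5 and 125 to 256 and 311 (1.14 ± 0.28). The calls of both were lost without either WT microglia library. All astrocyte markers with a promoter peak in microglia (5 of 15) summed to 184 and 166 in WT against 261 and 176 in SgshKO. These sums overlapped between genotypes, so the list did not follow Aldoc clearly. The myelin gene Mbp has several start sites, and its shared promoter had 8.61 to 11.4 normalized tags in Olig2+ nuclei, 74.8 and 66.6 in WT against 31.4 and 27.9 in SgshKO NeuN+ nuclei (-1.23 ± 0.17), with 36.3 and 33.9 in WT against 77.9 and 78.0 in SgshKO microglia (1.13 ± 0.34). In microglia the 5 shared promoters of oligodendrocyte markers had a median change of -0.06. All 7 markers of that list with a promoter peak there summed to 476 and 445 in WT against 490 and 400 in SgshKO, with overlap.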

How the data were processed

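ATAC-seq tags were counted over peaks in 3 tables, 1 for each sort, with 4 libraries in each. Reads were aligned with Bowtie2 to mm10 and processed with HOMER, per the submitters' processing notes (versions not given in the sources used here). Per the file headers, the deposited values are a signal, tags per peak scaled by the authors to 10000000 tags per library; whole reads were recovered from all of them within 0.01. The authors also deposited a score per peak, which was not used in any test. How peaks were called, and on which libraries, is not given in the sources used here.

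Tables were joined by reciprocal overlap of at least 50%. The values were taken as log2(normalized tags + 1), so a fold change of a low peak is understated, and each whole table was tested with limma 3.58.1 (R 4.3.3), with a trend in the variance, 2-sided, and Benjamini-Hochberg adjustment over all peaks of the table; a call is an adjusted p under 0.05. Differences between sorts came from 1 limma model of 12 libraries over 16740 peaks, with 1 spread per peak shared by all groups. Other settings tried were in-peak, median-of-ratios and quantile scaling, edgeR 4.0.16 and DESeq2 1.42.0 (both fitted to the recovered counts), pseudocounts of 0.5 and 5, a filter on the 25% of peaks with the lowest mean, a replicate block, overlaps of 25% and 80%, and leaving out each library. The scripts were tested on simulated data. Library totals of 10771659 to 19555924 tags set the counting error.

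Promoters were named by a rule: the 4 largest called changes in each direction and sort, the 2 smallest interaction p per pair of sorts, the smallest p per gene list and sort, the highest, most even and most uneven levels, the overlap limit, the smallest p per sequence word, and Sgsh, Mitf, Tfeb and Tfe3. One promoter that the rule names is not reported here. Promoters and gene lists (19 functional, 6 of cell type markers and 1 of Y-linked genes, which had 0 shared promoters) were chosen with earlier results of these data known. Promoter windows came from RefSeq (GRCm38.p6).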

Additional observations from a re-analysis of the deposited data

Results flagged for a closer look

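The genotype change of a promoter differed between sorts by a test of the difference itself, which brought these values here, and no explanation was tested. That test assumed that the libraries of all sorts vary alike at a peak. Microglia minus NeuN+ nuclei was called at 5315 shared promoters, with differences of 3.59 at Ulk1 and 3.40 at Plrg1 on the log2 scale. Microglia minus Olig2+ nuclei was called at 2644, with 2.83 at Ulk1 and 2.33 at Esrra. NeuN+ minus Olig2+ nuclei was called at 3852, with -2.02 at St3gal1 and -2.15 at A330009N23Rik. Groups of 2 libraries were too small for a search for single deviating libraries.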

How the results depend on the processing

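Counts and medians that moved are given here. The cause was not tested, except that an 80% overlap leaves fewer promoters by its construction (2879), of which 477, 1801 and 588 were called in microglia, NeuN+ and Olig2+ nuclei, with an Olig2+ split of 293 higher and 295 lower and an Olig2+ median of -0.005. There the contrasts of microglia with NeuN+ nuclei, of microglia with Olig2+ nuclei and between the nuclei were called at 1743, 909 and 1092, and the mean effect at 642. In microglia 2602 promoters were called with median-of-ratios scaling and 2837 with edgeR, and the median change was 0.133 with in-peak and 0.163 with quantile scaling. In NeuN+ nuclei 3522 were called with in-peak scaling, 1811 with quantile scaling and 1455 with DESeq2. The NeuN+ median was -0.532 with a pseudocount of 5, -0.289 in-peak, -0.369 with median-of-ratios scaling, -0.170 with quantile scaling, -0.371 with edgeR and -0.373 with DESeq2. In Olig2+ nuclei DESeq2 called 908, and the median was 0.115 with median-of-ratios scaling, 0.115 with edgeR and 0.117 with DESeq2.

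Promoters called in the same direction in all 3 sorts numbered 3 with a pseudocount of 5, 3 without the lowest peaks, 15 in-peak, 14 with median-of-ratios scaling, 25 with quantile scaling, 21 with edgeR, 3 with DESeq2 and 1 at an overlap of 25%. Microglia minus NeuN+ nuclei was called at 3239 promoters in-peak and 2555 with quantile scaling. NeuN+ minus Olig2+ nuclei was called at 1584 in-peak, 2100 with median-of-ratios scaling, 1229 with quantile scaling and 2233 with edgeR. The labels do not say whether libraries with the same replicate number belong together. Over all peaks, the deviations of such libraries had correlations of 0.042, 0.0036 and 0.00069 in the 3 sorts. With a replicate block 2780 promoters were called in microglia (2629 higher and 151 lower) and 12 in the same direction in all 3 sorts, and no other total moved by over 1.5 times.

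Leaving out 1 library gave 195 to 2449 calls in microglia (median 0.25 to 0.434), 0 to 3894 in NeuN+ nuclei (median -0.618 to -0.539) and 928 to 2002 in Olig2+ nuclei (median 0.024 to 0.080). The Olig2+ split was 713 higher and 228 lower or 660 and 268 without WT replicate 1 or 2, and 976 and 808 without SgshKO replicate 2. Without any 1 library there were 0 to 15 calls in the same direction in all 3 sorts, 2396 to 4633 between the nuclei and 1260 to 2866 for the mean effect. In the model of 12 libraries 3927 promoters were called in microglia, and 2857 to 4026 without any 1 library. It called 5248 in NeuN+ nuclei, or 3303 without WT replicate 1 of that sort. That model called 366 in Olig2+ nuclei, or 1039 and 1035 without microglia SgshKO replicate 1 or 2, 198 and 198 without NeuN+ WT replicate 1 or 2, 39 and 32 without Olig2+ WT replicate 1 or 2, and 63 and 39 without Olig2+ SgshKO replicate 1 or 2.

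Of 192 called changes of named promoters, 52 kept their call under every alternative run and 13 changed sign under at least 1. The changes of sign below include those of changes that were not called. After quantile normalization the NeuN+ change was 0.194 at Etf1, 0.131 at Kdm4b, 0.259 at Rab8a (0.010 in-peak), 0.151 at Khsrp, 0.060 at Zfp788, 0.272 at Eif4ebp2 (0.003 in-peak), 0.190 at Gm2a, 0.442 at Cox5b, 0.506 at Nudt9, 0.141 at Mitf and 0.246 at Eif5a. It was 0.399 at Mrps14, 0.135 at Smarca4, 0.496 at Pars2, 0.210 at Mbtps1, 0.023 at Fau, 0.435 at Lsm4 and 0.177 at 9530080O11Rik, and the microglia change of Ddit4 was -0.565.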
